A study of Homo sapiens with 8 samples.

Results

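The interleukin-1 and interleukin-6 cytokine genes described here are 10 of the 32803 genes of the deposited count table, chosen by name from their family membership: the ligands IL1A, IL1B and IL18, the antagonist IL1RN, the receptor chains IL1R1 and IL1RAP, the ligands IL6, LIF and IL11, and the receptor IL6R. Of these, 9 passed the filter on low counts and were tested among 16221 genes. IL11 did not pass. The members and the lists of other genes below were chosen with earlier results of these data known. RNA-seq counts came from UWB1.289, a human ovarian carcinoma cell line without functional BRCA1, from UWB1.289+BRCA1, which carries restored BRCA1, and from a derivative of each that is resistant to inhibitors of poly(ADP-ribose) polymerase (PARP). The titles of the resistant libraries mark them as Olres or Olred, without spelling out a drug. All 4 groups grew without drug, and every group is 2 libraries (n = 2). The BRCA1-deficient line was taken at passage 29 as the parent and at passage 56 as the resistant derivative, and the BRCA1-proficient line at passages 10 and 45. Resistance and passage changed together in both backgrounds and cannot be told apart. Each line has 1 derivative, the labels do not say whether it is a single clone, and nothing in them says that replicates came from separate cultures. The p-values therefore measure only the spread between these libraries, which may be technical.

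Interleukin-1 alpha and beta bind the receptor IL1R1, which recruits the accessory chain IL1RAP and signals through MYD88 and IRAK kinases to NF-kB, while the product of IL1RN occupies the same receptor without signalling. Interleukin-18 belongs to the same structural family and uses its own receptor pair, and both IL1B and IL18 are made as precursors that caspase-1 cleaves in inflammasomes. Interleukin-6, LIF and interleukin-11 signal through the shared chain IL6ST (gp130) to JAK kinases and STAT3, and are secreted by many carcinoma cells, ovarian ones included.

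The libraries held between 24094821 and 34394107 counts. The restored gene was checked first: BRCA1 stood at 36.1 and 35.1 CPM (read counts divided by the library total in megareads, with totals scaled by the TMM method) in parental deficient cells, 34.7 and 34.8 in resistant deficient cells, 212 and 191 in parental proficient cells and 2176 and 2365 in resistant proficient cells, so that it rose by 3.49 on the log2 scale between the proficient groups (edgeR adjusted p = 1.06e-10). In proficient cells resistance, passage and the BRCA1 level thus changed together. They cannot be told apart there, nor in the differences of the resistance effects between backgrounds. The deletion or mutation in UWB1.289 is not read by a total gene count. Of 12 markers of ovarian carcinoma and Mullerian epithelium, 11 or 12 reached 1 CPM in every group, with PAX8 at 199 to 303 CPM, while WT1 stayed under 1 CPM in all groups but the resistant proficient one. Of 12 leukocyte and macrophage markers, 2 or 3 reached 1 CPM in any group (PTPRC, CD14 and CD68), and TYROBP was at 0 counts in all 8 libraries. Of 7 fibroblast markers 1 or 2 reached 1 CPM, and of 5 endothelial markers 3 or 4, with CDH5 at 33.9 to 39.6 CPM in the deficient libraries. In bulk RNA, fewer cells making a transcript and less transcript per cell cannot be told apart.

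Promoters of 4 members are shown because IL1A, IL1B and IL1RN lie in 1 gene cluster on chromosome 2 but were not alike over the groups, and because IL6, on chromosome 7, had its highest level in another group. The sequences are from RefSeq on GRCh38.p14 (the counts were made on GRCh37), give the 250 bases before an annotated start site, and run 5′ to 3′ on the strand of the gene. They are IL1A on the minus strand at chr2:112784494-112784743, IL1B on the minus strand at chr2:112836780-112837029, IL1RN on the plus strand at chr2:113117721-113117970, the most upstream of its 3 start sites in the table, and IL6 on the plus strand at chr7:22726950-22727199. Capitals mark matches to the AP-1 motif TGANTCA, the NF-kB consensus or the TATA box motif TATAAA.
IL1A: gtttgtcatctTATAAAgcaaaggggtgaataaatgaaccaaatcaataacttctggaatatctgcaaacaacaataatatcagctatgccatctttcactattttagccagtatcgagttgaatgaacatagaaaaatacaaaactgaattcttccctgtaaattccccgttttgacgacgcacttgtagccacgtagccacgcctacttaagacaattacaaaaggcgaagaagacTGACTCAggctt
IL1B: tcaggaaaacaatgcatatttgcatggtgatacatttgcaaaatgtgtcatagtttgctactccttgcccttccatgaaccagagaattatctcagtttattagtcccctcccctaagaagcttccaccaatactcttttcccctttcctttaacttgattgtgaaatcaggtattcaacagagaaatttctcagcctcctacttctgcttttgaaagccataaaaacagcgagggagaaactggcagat
IL1RN: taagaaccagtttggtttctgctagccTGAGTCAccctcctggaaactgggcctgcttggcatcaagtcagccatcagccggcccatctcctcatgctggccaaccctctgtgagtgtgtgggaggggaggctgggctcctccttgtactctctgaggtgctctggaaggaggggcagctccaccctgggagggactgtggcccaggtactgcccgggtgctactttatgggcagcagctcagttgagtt
IL6: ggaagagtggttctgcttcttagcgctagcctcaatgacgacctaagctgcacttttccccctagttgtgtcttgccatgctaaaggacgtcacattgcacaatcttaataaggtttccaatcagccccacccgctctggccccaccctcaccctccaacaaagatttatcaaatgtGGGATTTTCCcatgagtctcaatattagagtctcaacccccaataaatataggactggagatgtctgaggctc
In IL1A the capitals are a TATAAA match at positions -239 to -234 and an AP-1 match at -12 to -6, counted from the start site. This is the more upstream of the 2 start sites of IL1A. From the other, AP-1 matches lay at -105 to -99 and -55 to -49, and its window held no TATAAA. IL1B held none of the 3 motifs in this window. IL1RN held an AP-1 match at -223 to -217, and IL6 an NF-kB match at -73 to -64. Windows in the table also take in the 50 bases from the start site on, and 8 of the 10 members had at least 1 window (IL18 and LIF had none). AP-1 matches stood in 5 of the 14 windows of the members (those of IL1A, IL11 and IL6R and 1 of IL1RN), against 7.71% of all 35116 windows, and both windows of IL1A overlap. The NF-kB consensus stood in 5.91% of all windows and, among the members, in that of IL6 alone. TATAAA on the strand of the gene stood in 7.33% of all windows and, among the members, in 1 of IL1A and 1 of IL1RN. The latter match lay at -30 to -25 from a start site of IL1RN whose sequence is not printed. AP-1 and NF-kB were searched on both strands, and the AP-1 motif is its own reverse complement. These are matches of letters, not binding sites.

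Most members fell with resistance in both backgrounds. In BRCA1-deficient cells, 8 of the 9 tested members fell and none rose, where 27% of all genes tested fell and 28.9% rose. The libraries of the compared groups did not overlap for any of the 9 (78.7% of all genes). In BRCA1-proficient cells, 7 fell and 1, IL6R, rose, where 27.8% of all genes fell and 25.9% rose. Here 8 of 9 did not overlap (76.4% of all genes). A gene was called to rise or fall when its edgeR quasi-likelihood p, adjusted by Benjamini-Hochberg over all genes tested, was under 0.05. The members that fell in both backgrounds numbered 7, where 13.2% of all genes tested did so. IL1B and IL1RN passed the filter on low counts mainly through the parental deficient libraries, where they are high, so that their calls against that group are no separate support. The median log2 fold change of the tested members was -1.01 in deficient and -1.08 in proficient cells (the latter also with IL1RN at its bound), beside medians of 0.03 and -0.0017 for all genes.

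**Figure D1:**
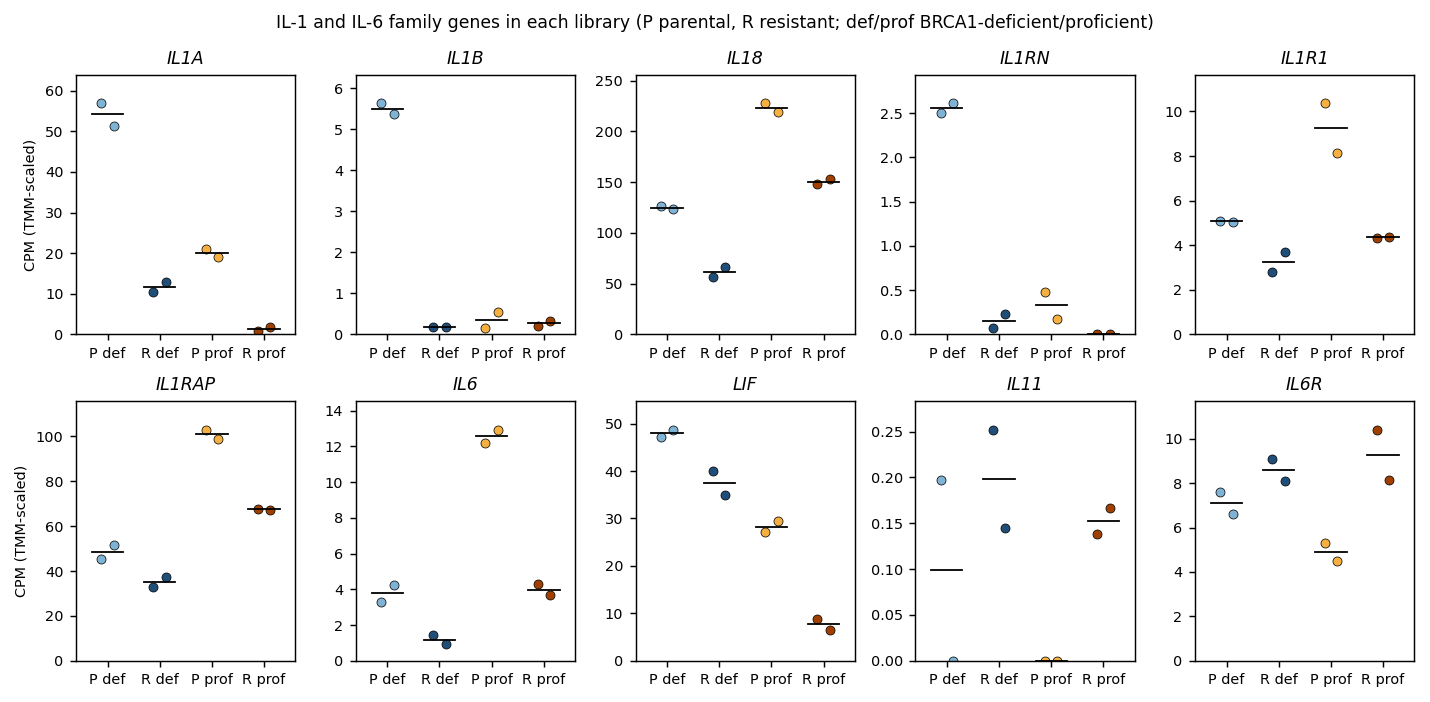
Level of each of the 10 genes in each library, in CPM on TMM-scaled totals, with a separate linear axis from 0 for each gene. Each point is 1 library and the bar is the mean of the 2 libraries of a group (P parental, R resistant, def BRCA1-deficient, prof BRCA1-proficient). IL1A falls in both backgrounds, IL1B and IL1RN are high in parental deficient cells and low in the other 3 groups, and IL6 is highest in parental proficient cells.

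IL1A, whose product acts as an alarm signal of damaged epithelium and is active without cleavage, was the IL-1 receptor ligand with the highest level per kilobase in every group. Parental deficient libraries had 56.8 and 51.4 CPM, and resistant deficient libraries 10.4 and 12.9. Parental proficient libraries had 21.0 and 19.0 CPM, and resistant proficient libraries 0.833 and 1.75. No groups overlapped, and each resistant group lay below its parent. The fall was 4.62-fold in deficient cells (log2 fold change -2.21, SE 0.18, edgeR adjusted p = 3.22e-06). In proficient cells it was 15.8-fold (log2 fold change -3.98, SE 0.24, edgeR adjusted p = 1.89e-07). Both calls held under all 16 alternatives.

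IL1B, the main secreted interleukin-1 of activated myeloid cells, was found almost entirely in parental deficient libraries, at 5.63 and 5.36 CPM. Resistant deficient libraries had 0.180 and 0.174 CPM (11 counts in all against 358). Parental proficient libraries had 0.161 and 0.553 CPM (20 counts) and resistant proficient libraries 0.208 and 0.333 CPM (14 counts). The 3 other groups thus lay close together near the limit of detection, and those of the proficient cells overlapped. IL1B fell 30.4-fold with resistance in deficient cells (log2 fold change -4.93, SE 0.44, edgeR adjusted p = 5.48e-06). For the proficient cells the log2 difference of -0.46 (SE 0.57) did not pass (edgeR adjusted p = 0.523) and stood at 0.70 without parental proficient replicate 2. Leukocytes are the usual main source of this gene. The summed level of the leukocyte list was 24.7 and 25.4 CPM in parental deficient, 22.5 and 22.4 in resistant deficient, 18.8 and 18.7 in parental proficient and 30.0 and 29.3 in resistant proficient libraries. Within that list PTPRC, which encodes CD45, lay at 9.21 and 8.78 CPM in parental deficient and at 3.49 and 4.66 in resistant deficient libraries, lower in the resistant group as IL1B was. CD68, the most abundant marker of the list there, lay at 13.2 and 15.3 CPM in parental and at 16.5 and 15.9 in resistant deficient libraries, and CD14 at 0.658 and 0.287 against 1.04 and 0.752, neither lower in the resistant group. SPI1, LYZ, AIF1 and CD3E had at most 6 counts over all libraries. In proficient cells PTPRC went from 13.3 and 12.3 to 5.66 and 6.83 CPM, and CD14 from 2.14 and 2.80 to 22.0 and 20.6 CPM. The part of such cells in the levels of the cytokine genes was not tested.

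IL18, a constitutive product of many epithelia, had the highest level per kilobase of all 10 genes in every group. Its parental deficient libraries had 126 and 123 CPM and its resistant deficient libraries 56.9 and 66.6. Its parental proficient libraries had 228 and 219 CPM and its resistant proficient libraries 148 and 153. The 4 groups did not overlap. IL18 fell 2.02-fold in deficient cells (log2 fold change -1.01, SE 0.08, edgeR adjusted p = 2.25e-06) and the log2 value was -0.65 once each library was freed of the trend that log2 CPM had with the GC content of transcripts. In proficient cells the fall was 1.49-fold (log2 fold change -0.57, SE 0.08, edgeR adjusted p = 8.28e-05).

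IL1RN encodes the receptor antagonist, made in a secreted and in intracellular forms that the gene counts do not separate. It had 2.50 and 2.61 CPM in parental deficient libraries (167 counts) and 0.0720 and 0.231 in resistant deficient ones (10 counts). Parental proficient libraries had 0.484 and 0.173 CPM (17 counts), and both resistant proficient libraries had 0 counts. As with IL1B, parental deficient cells stood apart. Each resistant group lay below its parent without overlap, which for IL1B held in deficient cells only. The fall in deficient cells was 15.7-fold (log2 fold change -3.97, SE 0.55, edgeR adjusted p = 0.000188), and the log2 value was -5.10 without resistant deficient replicate 2. In proficient cells the level was at least 5.57-fold lower, taking 3 counts over the resistant group as the floor (edgeR adjusted p = 0.00627). Such bounds allow for counting error in the group at 0 counts only, and take the counts of the other group as exact.

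Both chains of the signalling receptor fell with resistance. IL1R1 had 5.10 and 5.05 CPM in parental deficient, 2.81 and 3.70 in resistant deficient, 10.4 and 8.12 in parental proficient and 4.34 and 4.37 in resistant proficient libraries. Each resistant pair lay below its parental pair. In deficient cells the fall of 1.55-fold (log2 fold change -0.63, SE 0.21, edgeR adjusted p = 0.0216) held in 11 of 16 alternatives. It was lost with DESeq2 (log2 -0.62), without parental deficient replicate 1 (-0.63) or replicate 2 (-0.67), without resistant deficient replicate 1 (-0.48) and with the GC trend removed (-0.34). In proficient cells the fall was 2.12-fold (log2 fold change -1.08, SE 0.20, edgeR adjusted p = 0.000836). IL1RAP, the accessory chain also shared by the receptors of interleukin-33 and interleukin-36, had 45.5 and 51.8 CPM in parental deficient and 32.7 and 37.2 in resistant deficient libraries. It had 103 and 98.9 CPM in parental proficient and 67.8 and 67.3 in resistant proficient libraries. IL1RAP thus lay below its parent in both resistant groups without overlap. Its falls were 1.39-fold in deficient cells (log2 fold change -0.48, SE 0.09, edgeR adjusted p = 0.00109) and 1.49-fold in proficient cells (log2 fold change -0.58, SE 0.09, edgeR adjusted p = 0.000214). The first of these was -0.15 and did not pass with the GC trend removed (edgeR adjusted p = 0.0704).

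IL6, the ligand that drives acute phase and STAT3 responses, had 3.29 and 4.25 CPM in parental deficient and 1.44 and 0.926 in resistant deficient libraries. It had 12.2 and 12.9 CPM in parental proficient and 4.30 and 3.66 in resistant proficient libraries. Parental proficient cells were the high group, and the levels of parental deficient and resistant proficient cells overlapped. With resistance IL6 fell 3.23-fold in deficient cells (log2 fold change -1.69, SE 0.25, edgeR adjusted p = 0.000219). The fall in proficient cells was 3.14-fold (log2 fold change -1.65, SE 0.22, edgeR adjusted p = 6.99e-05). The difference between these effects was 0.04 in log2 units (SE 0.31, edgeR adjusted p = 0.937), a value whose sign changed in 4 alternatives.

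LIF, leukemia inhibitory factor, followed another order. Its levels were 47.2 and 48.7 CPM in parental deficient, 39.9 and 34.9 in resistant deficient, 27.1 and 29.5 in parental proficient and 8.81 and 6.54 in resistant proficient libraries. The groups did not overlap, and both deficient groups lay above both proficient groups. In proficient cells LIF fell 3.67-fold (log2 fold change -1.87, SE 0.14, edgeR adjusted p = 1.02e-06). The deficient cells showed a fall of 1.28-fold (log2 fold change -0.36, SE 0.13, edgeR adjusted p = 0.0302). That call was lost without parental deficient replicate 1 (-0.39), parental deficient replicate 2 (-0.37) or resistant deficient replicate 2 (-0.29), and the log2 value was -0.65 with the GC trend removed. IL11, a gp130 ligand linked to bone metastasis and fibrosis, was barely detected. It had 6 and 0 counts in parental deficient, 7 and 5 in resistant deficient, 0 and 0 in parental proficient and 4 and 4 in resistant proficient libraries. No difference in IL11 was tested. Against the floor of 3 counts its level in resistant proficient cells was at least 2.71-fold that of their parent, taking its 8 counts there as exact.

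IL6R encodes the ligand-binding chain of the interleukin-6 receptor and was the member that rose. Its libraries had 7.60 and 6.60 CPM in parental deficient, 9.07 and 8.10 in resistant deficient, 5.32 and 4.49 in parental proficient and 10.4 and 8.16 in resistant proficient cells. Both resistant pairs lay above their parental pairs. In proficient cells the rise was 1.90-fold (log2 fold change 0.92, SE 0.19, edgeR adjusted p = 0.00154). The deficient cells had a log2 difference of 0.27 (SE 0.18) that did not pass (edgeR adjusted p = 0.220).

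**Figure D2:**
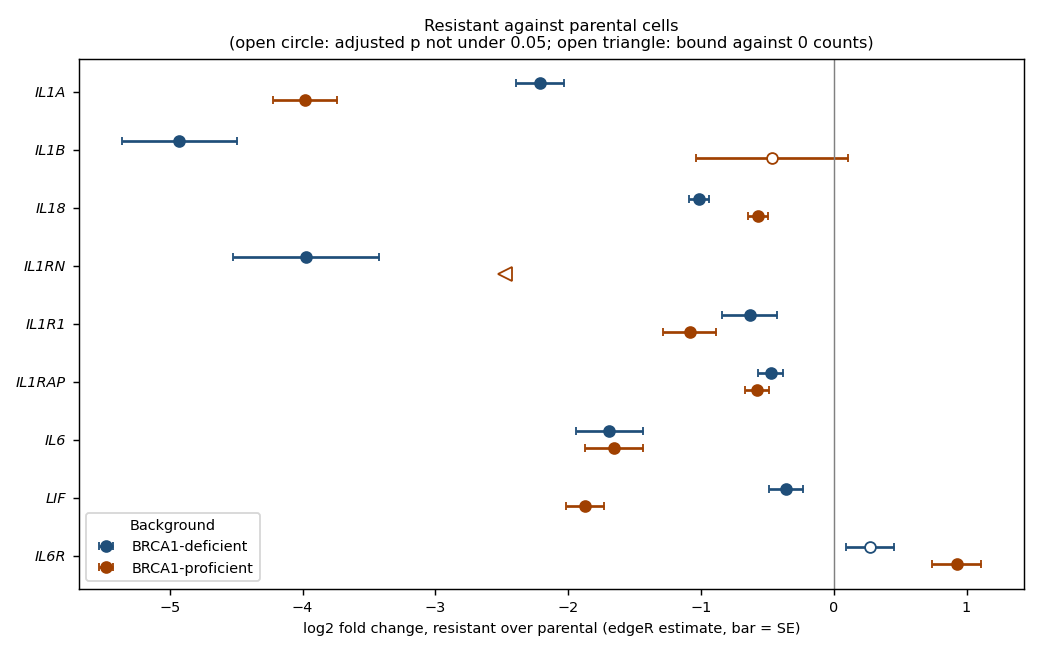
Log2 fold change of resistant over parental cells for the 9 tested genes in each BRCA1 background, with SE bars from edgeR. Open circles did not pass the adjusted p of 0.05, and the open triangle is the bound of IL1RN against a group at 0 counts. All filled points except IL6R in proficient cells lie left of 0, and the largest fall among the filled points is that of IL1B in deficient cells. The bound of IL1RN does not give its place in that order.

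The size of the resistance effect differed between backgrounds for 4 of the 9 tested members, where 46.7% of all genes tested had such a difference (edgeR, adjusted p under 0.05). It was above 0 for 2 members and below 0 for 2, and for 21.4% and 25.3% of all genes. Removing the GC trend left 1 member above 0 and 4 below. The fall of IL1A was larger in proficient cells (difference -1.77 in log2 units, SE 0.31, edgeR adjusted p = 0.000776). That of LIF was also larger there (difference -1.51, SE 0.19, edgeR adjusted p = 8.03e-05). IL1B differed the other way, by 4.46 (SE 0.79, edgeR adjusted p = 0.000895), and by 5.63 without parental proficient replicate 2. The parental proficient libraries held 20 counts of IL1B to start from, against 358 in the parental deficient ones. For IL18 the difference was 0.44 (SE 0.11, edgeR adjusted p = 0.00671), and it was 0.14 and did not pass with the GC trend removed. IL6R had a difference of 0.65 (SE 0.26) that did not pass (edgeR adjusted p = 0.0603) but passed in 6 of 15 alternatives, among them those without resistant deficient replicate 1 (0.81) or resistant proficient replicate 2 (0.88), and with it 3 members were above 0. With the GC trend removed, the falls of IL1R1 (difference -0.70) and IL1RAP (-0.39) in proficient cells also passed as larger.

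Members differed in both directions between cells with and without restored BRCA1. These comparisons use the same libraries as those above, and passage differed between the compared groups here too. Among parental cells, all 9 tested members differed, 4 higher and 5 lower in proficient cells, where 32.3% of all genes tested were higher and 30.1% lower, and none of the 9 overlapped (83% of all genes did not). Of the lower ones, IL1B and IL1RN passed the filter on low counts mainly through the parental deficient libraries, so their calls here are no separate support. IL6 was 3.32-fold higher (log2 fold change 1.73, SE 0.22, edgeR adjusted p = 3.65e-05). IL1RAP was higher by 1.05 on the log2 scale, IL18 by 0.84 and IL1R1 by 0.86, all past the adjusted p. With the GC trend removed IL1RAP was higher by 0.68 and IL18 by 0.39. IL1B was 14.8-fold lower in proficient parental cells (log2 fold change -3.88, SE 0.40, edgeR adjusted p = 8.57e-06), and its log2 value was -5.05 without parental proficient replicate 2. IL1RN was 7.90-fold lower (log2 fold change -2.98, SE 0.50, edgeR adjusted p = 0.000498), with -3.88 and -2.39 without parental proficient replicates 1 and 2. IL1A was lower by 1.44 in log2 units, that is 2.71-fold. LIF had a log2 fold change of -0.76, and -0.36 with the GC trend removed. IL6R, at -0.53 (edgeR adjusted p = 0.0279), lost its call with DESeq2 (-0.55) and without parental deficient replicate 1 (-0.43) or parental proficient replicate 2 (-0.41).

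Between the resistant groups, 3 members were higher and 3 lower in proficient cells, where 36.3% and 37.5% of all genes tested were, and 8 of 9 did not overlap (86.5% of all genes). IL6 was 3.41-fold higher (log2 fold change 1.77, SE 0.26, edgeR adjusted p = 7.02e-05). IL18 was higher by 1.28 and IL1RAP by 0.95 on the log2 scale, and by 0.54 and 0.29 with the GC trend removed. IL1A was 9.26-fold lower (log2 fold change -3.21, SE 0.24, edgeR adjusted p = 4.36e-07), and -3.96 in log2 units with the GC trend removed. LIF was 4.84-fold lower (log2 fold change -2.28, SE 0.14, edgeR adjusted p = 9.37e-08), and -1.67 in log2 units with that trend removed. IL1RN was at least 2.83-fold lower (edgeR adjusted p = 0.0201), taking its 10 counts in resistant deficient libraries as exact. The call was lost without resistant deficient replicate 2 or either resistant proficient library. IL1B at 0.58, IL1R1 at 0.41 and IL6R at 0.12 did not pass, and the last of these overlapped between the groups.

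Per kilobase of the longest annotated transcript, the order of the group means differed between the groups. In parental deficient cells it ran from IL18 (73.6 CPM per kb) through IL1A (25.5), LIF (12.1), IL1RAP (8.99), IL1B (3.37), IL6 (2.47), IL1RN (1.33), IL6R (1.20) and IL1R1 (0.987) to IL11 (0.0433). In resistant proficient cells IL1A stood at place 7 with 0.608 CPM per kb, after IL18 (88.6), IL1RAP (12.5), IL6 (2.61), LIF (1.93), IL6R (1.57) and IL1R1 (0.847). Within each background the place of IL1A was 2 in parental and 4 in resistant deficient cells (25.5 and 5.49 CPM per kb), and 3 in parental and 7 in resistant proficient cells (9.41 and 0.608). LIF stood at place 3 and then 2 in deficient cells, and at place 5 and then 4 in proficient cells. Neighbours in these orders were not tested against each other.

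Further ligands of the interleukin-1 family were mostly at or near 0. Of 7, IL36RN, an antagonist of the interleukin-36 receptor from the same chromosome 2 cluster, was the only one tested. It had 0.605 and 1.07 CPM in parental proficient libraries (46 counts) and 0 counts in both resistant proficient ones, a level at least 15.1-fold lower. IL36RN passed the filter on low counts through the parental proficient libraries alone, with 2 counts in each deficient group, so this difference is a description. IL33, IL36A, IL36B and IL1F10 had 0 counts in all libraries. Of 9 further receptors and decoys, 7 were tested. In deficient cells 4 of these fell and 1 rose (median log2 fold change -1.07), and in proficient cells 2 fell and 2 rose (-0.17), beside the medians of all genes given above. Counts of this and the following lists stand beside 28.9% of all genes that rose and 27% that fell in deficient cells, and 25.9% and 27.8% in proficient cells. IL1RL1, the interleukin-33 receptor, had 24.0 and 23.0 CPM in parental deficient libraries and a mean of 1.49 ± 0.0196 (SD, n = 2) in resistant deficient ones. It fell by 3.97 on the log2 scale in deficient cells and fell by 2.12 in proficient cells. The interleukin-36 receptor IL1RL2 fell by 3.20 in deficient cells and had a log2 fold change of -2.82 in proficient ones. IL1R2, a decoy receptor, fell by 1.07 in deficient cells. SIGIRR, which restrains interleukin-1 receptor signalling, rose by 1.78 there, and by 0.45 with the GC trend removed. Genes of the lists that are given with a log2 fold change passed the edgeR adjusted p of 0.05.

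Genes of inflammasomes and interleukin-1 processing rose and fell in shares near those of all genes. Of 10 tested, 3 rose and 3 fell in deficient cells (median log2 fold change 0.45), and 2 rose and 3 fell in proficient cells (0.11, or 0.21 without PYCARD, which had no counts there). CASP1, the protease that matures IL1B and IL18, had 1.55 and 1.12 CPM in parental deficient and 0 and 0.116 in resistant deficient libraries, a log2 fold change of -4.29 (-3.50 without resistant deficient replicate 1 and -8.26 without replicate 2). In proficient cells CASP1 rose from 0.403 and 0.484 to 3.26 and 3.12 CPM, by 2.83. NLRP1, an inflammasome sensor, rose by 7.52 in proficient cells, from 0.161 and 0.138 to 29.9 and 26.2 CPM. In deficient cells NLRP1 rose by 1.11, which did not pass in the fit of the 2 groups alone (1.07) or without parental deficient replicate 2 (0.74). PYCARD, the adaptor ASC, rose by 2.63 in deficient cells (1.94 with the GC trend removed) and had 0 counts in all 4 proficient libraries. CASP4, the sensor of cytosolic lipopolysaccharide, fell by 0.77 in deficient cells (a value of -0.38 with the GC trend removed), while its fall by 0.22 in proficient cells passed in 3 of 16 alternatives and was lost without each library but parental proficient replicate 2 (values of -0.23 to -0.13).

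Of 16 genes of interleukin-1 receptor signalling, 5 rose and 4 fell in deficient cells, and 1 rose and 9 fell in proficient cells. Their median log2 fold change was 0.03 and -0.38, beside 0.03 and -0.0017 for all genes. The kinase IRAK4 fell by 1.19 in deficient and by 0.55 in proficient cells (-0.37 without resistant proficient replicate 1). IRAK3, a negative regulator, fell by 2.48 in deficient cells. TAB3, which links TRAF6 to TAK1, fell by 0.94 in proficient cells and by 0.41 in deficient cells, where it did not pass with the GC trend removed (-0.04). PELI1, a ubiquitin ligase of IRAK complexes, fell by 0.71 in proficient cells.

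Among 17 genes known as interleukin-1 responsive NF-kB targets, 14 were tested. In deficient cells 12 of them fell and none rose, where 27% of all genes fell and 28.9% rose, with a median log2 fold change of -1.01. In proficient cells 7 fell and 4 rose, where 27.8% of all genes fell and 25.9% rose, with a median of -0.54. The list was chosen with earlier results of these data known, so these counts are a description. LCN2, lipocalin-2, had 129 and 131 CPM in parental deficient and 17.1 and 14.6 in resistant deficient libraries, and 80.8 and 79.8 against 12.5 and 11.4 in proficient cells. It fell by 3.03 and by 2.75 in log2 units. The neutrophil chemokine CXCL8 fell by 1.97 in deficient and by 1.89 in proficient cells. CCL2, a monocyte chemokine, fell by 2.65 in deficient cells, from 7.63 and 7.60 to 1.40 and 1.04 CPM, and rose by 3.44 in proficient cells, from 1.77 and 1.07 to 15.3 and 15.4 CPM. The adhesion molecule ICAM1 fell by 1.32 in deficient cells. Its rise by 0.25 in proficient cells was lost without parental proficient replicate 1 (0.28) or replicate 2 (0.26) and without resistant proficient replicate 1 (0.20), was 0.39 without resistant proficient replicate 2, and was 0.16 with the GC trend removed.

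Of 3 other interleukin-6 family ligands tested, none rose and 1 fell in deficient cells (median log2 fold change -0.40), and none rose and 2 fell in proficient cells (-0.50). CLCF1, a ligand of the ciliary neurotrophic factor receptor, fell by 0.66 in deficient cells. Its fall by 0.50 in proficient cells passed in 10 of 16 alternatives. That fall did not pass with DESeq2 (-0.46) or without parental deficient replicate 2 (-0.46). Nor did it pass without either parental proficient library (-0.40 and -0.56) or either resistant proficient one (-0.50 and -0.41). EBI3, a subunit of interleukin-27 and interleukin-35, had 16 counts in parental and 0 in resistant proficient libraries, a level at least 5.24-fold lower (edgeR adjusted p = 0.0157), which passed in 11 of 14 alternatives, not without parental proficient replicate 2 or either resistant proficient library.

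Of 5 tested receptor genes of that family, 2 rose and 2 fell in deficient cells (median log2 fold change -0.35), and 3 rose and 1 fell in proficient cells (1.12). OSMR, the oncostatin M receptor, fell by 0.86 in deficient cells and rose by 1.83 in proficient cells, where it went from 31.2 and 29.3 to 105 and 111 CPM. IL11RA, the receptor for interleukin-11, rose by 1.33 and by 1.38. IL6ST, the shared chain gp130, fell by 0.35 in deficient cells, and was 0.08 higher and past no threshold with the GC trend removed. IL27RA rose by 0.65 in deficient cells (0.26 with the GC trend removed, 0.37 without resistant deficient replicate 1, and no call at 0.54 without parental deficient replicate 2). In proficient cells it fell by 0.58, a call lost without parental proficient replicate 2 (-0.57) or resistant proficient replicate 2 (-0.41).

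Of 12 genes of JAK and STAT3 signalling, 1 rose and 6 fell in deficient cells (median log2 fold change -0.17), and 4 rose and 5 fell in proficient cells (0.07). SOCS2, a feedback inhibitor, fell by 0.76 in deficient cells and fell by 2.85 in proficient cells. The kinase PIM1, a STAT3 target, fell by 1.56 in proficient cells. JAK1 fell by 0.57 and by 0.44, and the first of these values was -0.31 with the GC trend removed. PTPN11, the phosphatase SHP2, fell by 0.70 in deficient cells, and stood at -0.38 with the GC trend removed.

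Among 12 tested transcription factors that act on cytokine genes, 3 rose and 2 fell in deficient cells, whereas 1 rose and 9 fell in proficient cells. The median log2 fold change was -0.17 in deficient and -0.95 in proficient cells. FOSL1, an AP-1 subunit, had 58.9 and 58.6 CPM in parental deficient and 60.8 and 55.8 in resistant deficient libraries, against 8.06 and 8.37 in parental proficient and 1.04 and 0.999 in resistant proficient ones. In proficient cells it fell 8.02-fold. ATF3 fell by 2.61 there. NFKB1, which encodes the p50 precursor, fell by 0.54 in deficient cells and fell by 1.34 in proficient cells. CEBPB, first named for binding the IL6 promoter, fell by 0.46 and by 0.94, and by 1.56 in deficient cells with the GC trend removed. The difference between these effects, proficient minus deficient, was -0.47 and turned to 0.66 with that trend removed, each past the edgeR adjusted p.

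Of 9 tested regulators of cytokine mRNA decay, 2 rose and 4 fell in deficient cells (median log2 fold change -0.0086), and 3 rose and 4 fell in proficient cells (0.12), where 27% and 27.8% of all genes fell. ZFP36L1, which binds AU-rich elements, fell by 0.50 and by 1.29. Its relative ZFP36L2 rose by 0.53 in proficient cells. RC3H1 (roquin-1) rose by 0.50 in proficient cells, while its fall by 0.24 in deficient cells passed in 9 of 16 alternatives and stood at 0.13 with the GC trend removed. Libraries whose absence ended that call were parental deficient replicate 1 (-0.30) and replicate 2 (-0.20), resistant deficient replicate 1 (-0.20) and parental proficient replicate 2 (-0.24). KHSRP rose by 0.51 in deficient cells, by 0.25 without resistant deficient replicate 1, and was 0.03 with no call once the GC trend was removed.

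**Figure D3:**
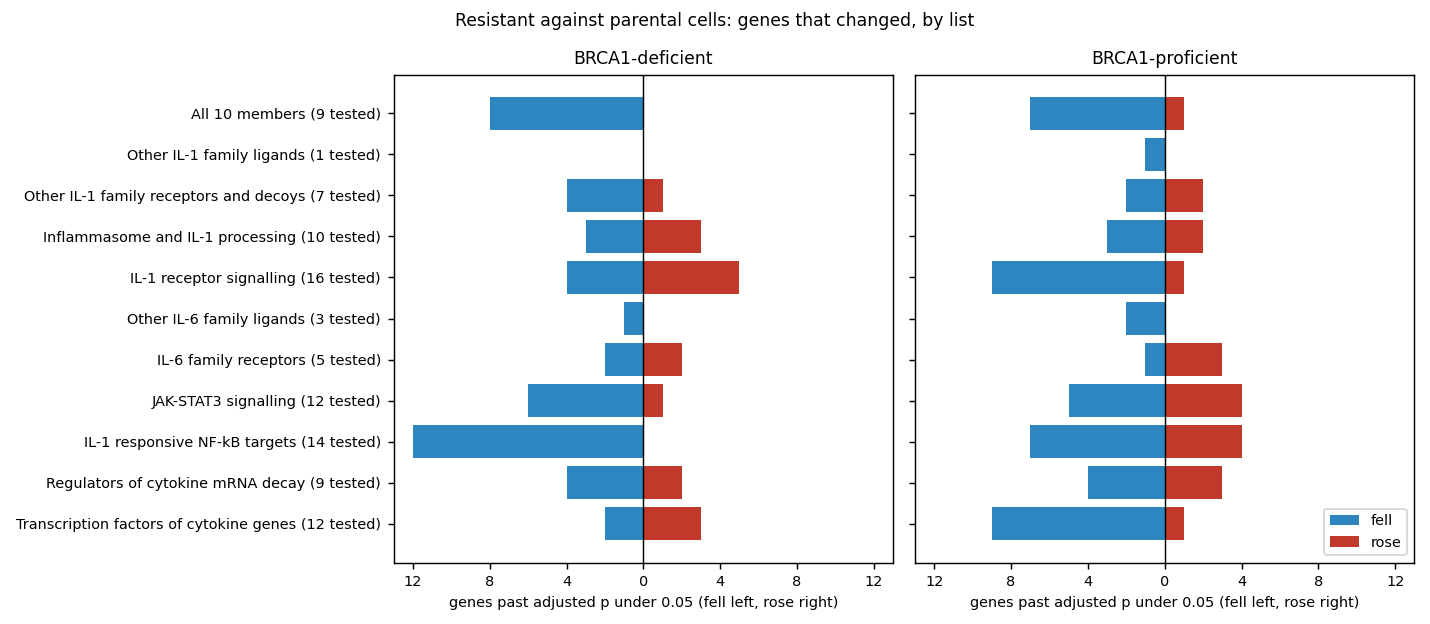
Number of tested genes of each list that fell (left, blue) or rose (right, red) in resistant against parental cells at an adjusted p under 0.05, for BRCA1-deficient (left panel) and BRCA1-proficient cells (right panel). The NF-kB target list has 12 falls and no rise in deficient cells, and the signalling and transcription factor lists have 9 falls each in proficient cells. The lists were chosen with earlier results of these data known.

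The genes whose pattern over the 8 libraries lay nearest to that of IL1A, IL1B and IL6 were found by the Euclidean distance between log2 CPM values (prior count 2), each centred on its own mean. These distances are descriptions, and all points share the same libraries. For IL1A the 3 nearest genes were MSR1 (distance 0.989), a scavenger receptor of macrophages, BRINP2 (1.10) and PTX3 (1.28), a secreted pentraxin induced by interleukin-1. PTX3 had 59.1 ± 1.48 CPM in parental deficient, 19.9 ± 0.430 in resistant deficient, 20.1 ± 1.95 in parental proficient and 1.65 ± 0.270 in resistant proficient cells (mean ± SD, n = 2). For IL1B they were A1CF (1.44), an RNA-binding partner of the apolipoprotein B editing enzyme, LOC100126784 (1.65) and UPK1B (1.74), a urothelial membrane protein found here in parental deficient cells alone. For IL6 they were MEIOB (0.559), a meiosis gene, DNMT3B (0.665), a DNA methyltransferase, and SYTL3 (0.781). DNMT3B had 42.0 ± 3.95, 12.5 ± 0.862, 112 ± 2.21 and 31.4 ± 0.356 CPM in the same order of groups.

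**Figure D4:**
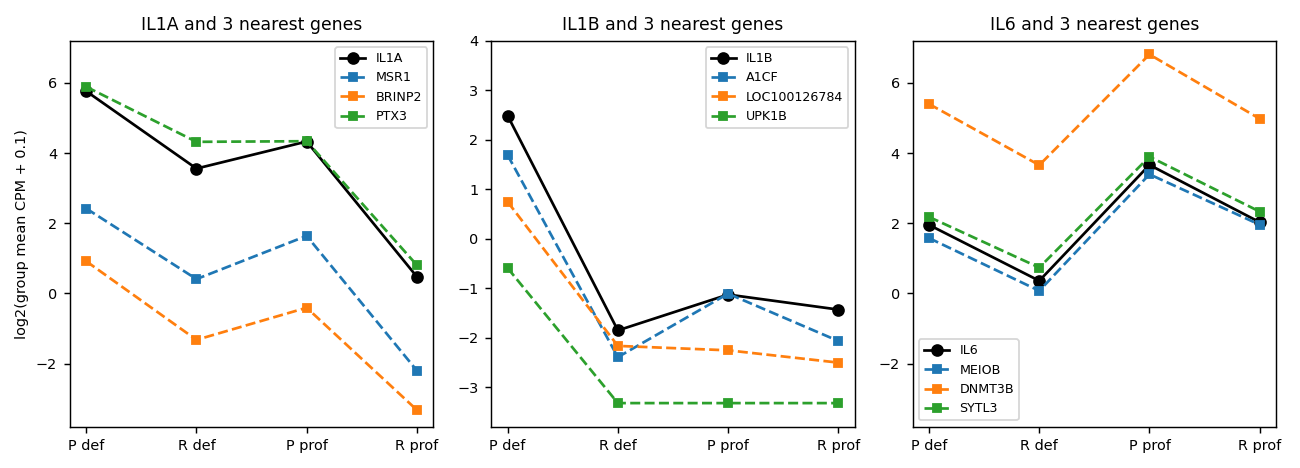
Group mean level, as log2(CPM + 0.1), of IL1A, IL1B and IL6 and of the 3 genes nearest to each in pattern, over the 4 groups. The lines join groups for reading only, and genes at 0 counts in a group sit at the bottom of the scale (BRINP2 in resistant proficient cells, UPK1B in all but parental deficient cells).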

How the data were processed

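RNA-seq of total RNA from 8 libraries was analysed from 1 table of deposited counts, whole numbers of reads per gene symbol that the authors made without normalisation. Per the submitters' processing notes the reads went through a set of tools that names DESeq2 1.24.0, Subread 2.0.1, featureCounts and Trimmomatic 0.39, on GRCh37. Annotation, strand setting and the handling of multiply matching reads are not stated there, so reads of overlapping or antisense genes cannot be told apart. Groups came from the sample titles.

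Counts were scaled by TMM and filtered by filterByExpr, and all 8 libraries entered 1 quasi-likelihood fit of edgeR 4.0.16 (R 4.3.3) without covariates, with 4 residual degrees of freedom. p-values were adjusted by Benjamini-Hochberg over 16221 genes. The SE is the size of the log2 fold change divided by the square root of F. Replicates differed by more than sampling noise, with a chi-square per degree of freedom of 4.21 to 22.5. The steps were tested on simulated data. All 10 members were named, with up to 4 genes of each list that passed with the smallest adjusted p in a resistance comparison. Members and lists were chosen with earlier results of these data known, and 1 list gene is not reported here.

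There were 16 alternatives: RLE factors, library totals alone, no filter, at least 1 CPM in 2 libraries, DESeq2 1.42.0, fits of only the 2 compared groups, a replicate block, 8 fits with a library left out, and the GC trend (5 spline degrees of freedom, longest GENCODE 29 transcript, 94.8% of genes) removed through edgeR offsets. A crossed block was added after seeing the data. Lengths for CPM per kb also come from GENCODE 29, promoters from RefSeq. Where a group had 0 counts a bound was computed with 3 counts in that group as the floor. Such bounds allow for counting error in the group at 0 counts only, and take the counts of the other group as exact. They cover no spread between libraries, and reads carried no molecular identifiers that the sources name.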

Additional observations from a re-analysis of the deposited data

Results flagged for a closer look

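A test of the difference between the resistance effects, proficient minus deficient on the log2 scale, used the edgeR adjusted p of 0.05. It passed for 4 of the 9 tested cytokine genes, where 46.7% of all genes tested passed. They were IL1A (-1.77), IL1B (4.46), IL18 (0.44) and LIF (-1.51). IL1B passed the filter on low counts mainly through the parental deficient libraries, where it is high, so its value is a description. For IL1A and LIF the fall was larger in BRCA1-proficient cells, and for IL1B and IL18 it was larger in BRCA1-deficient cells. The difference of IL18 was 0.14 and did not pass with the GC trend removed.

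Among the named genes of the surrounding pathways that had counts in every group, the same test passed for 25, where 46.7% of all genes tested passed. EBI3, at 0 counts in resistant proficient libraries, is not among the 25. It also passed (edgeR adjusted p = 0.0422), though in only 8 of 14 alternatives. These genes were named for a small adjusted p in a resistance comparison of the same libraries, so their number is no separate support. The value was above 0, a stronger rise, a weaker fall or a rise against a fall in proficient cells, for IL1RL1 (1.85), IL1R2 (0.89), NLRP1 (6.41), CASP4 (0.55), CASP1 (7.12), IRAK3 (2.87), IRAK4 (0.63), OSMR (2.70), IL6ST (0.41), PTPN11 (0.60), ICAM1 (1.57), CCL2 (6.09), ZFP36L2 (0.36) and RC3H1 (0.74). CCL2, CASP1, OSMR, ICAM1 and RC3H1 fell in deficient and rose in proficient cells, each past the adjusted p. The rise of ICAM1 and the fall of RC3H1 lost their calls in some alternatives. Without resistant deficient replicates 1 and 2 the value of CASP1 was 6.37 and 11.1. With the GC trend removed CASP4 (0.25) and IL6ST (0.11) did not pass, and IRAK4 (0.35), PTPN11 (0.31) and RC3H1 (0.44) did. Without parental proficient replicate 2, IL6ST (0.36) and ZFP36L2 (0.31) did not pass.

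The value was below 0, a stronger fall, a weaker rise or a fall against a rise in proficient cells, for SIGIRR (-1.97), TAB3 (-0.53), PELI1 (-0.70), IL27RA (-1.23), SOCS2 (-2.09), PIM1 (-1.58), ZFP36L1 (-0.79), ATF3 (-2.49), FOSL1 (-2.99), NFKB1 (-0.80) and CEBPB (-0.47). IL27RA rose in deficient and fell in proficient cells, each past the adjusted p, though both calls were lost in some alternatives. With the GC trend removed SIGIRR (-0.57) did not pass and TAB3 stood at -0.84. CEBPB did not pass without parental deficient replicate 2 (-0.40), parental proficient replicate 1 (-0.40) or resistant proficient replicate 2 (-0.37). Once the GC trend was removed its difference turned to 0.66 and passed in that opposite direction (edgeR adjusted p = 0.0112).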

How the results depend on the processing

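Of 707 log2 values of members under the alternatives, 674 kept their direction and side of the threshold, and 1193 of 1239 values of list genes did. No total of members or genes called moved by 1.5 times. By direction, the difference of the resistance effects was above 0 for 2 members and below 0 for 2, against 1 and 4 with the GC trend removed and 3 and 2 in 6 other alternatives, the replicate block included. Signs changed for IL1B in proficient cells (0.70 without parental proficient replicate 2, from -1.01 over the libraries left out), for IL1R1 (-0.11, GC trend removed) and IL6R (-0.031 without resistant proficient replicate 1, up to 0.31) between the resistant groups, and for the difference of the resistance effects of IL1RAP (0.070 without resistant deficient replicate 2, down to -0.13) and IL6 (-0.09 without parental deficient replicate 2, -0.19 without resistant deficient replicate 2, -0.0054 without resistant proficient replicate 1, up to 0.45 over the libraries left out, and -0.20 with the GC trend removed). None of these had passed. With the GC trend removed the sign also changed for IL6ST (0.075) and RC3H1 (0.13) in deficient cells and for the difference of CEBPB (0.66, which passed). That correction moved the median of all genes between the resistant groups by -0.17, from -0.02 to -0.19, and left 6 members called in deficient cells. The cause was not tested.

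Same-numbered replicates correlated at 0.484, -0.386, -0.290 and 0.550 in the 4 group pairs, so the numbers do not establish a pairing. With the replicate block 8, 8, 9, 6 and 5 members were called in the 5 comparisons (against 8, 8, 9, 6 and 4), and 9140, 8858, 10188, 11950 and 7837 genes. The member gained was the difference of IL6R (0.64, edgeR adjusted p = 0.0347). Crossing the numbers called 8217 genes for resistance in proficient cells and 11014 between the parental groups. IL11, and IL1B and IL1RN outside parental deficient cells, are limited by depth.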
